A study of Mus musculus with 2 samples.

Results

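The 6 genes of the mouse Mir181 family, Mir181a-1, Mir181b-1, Mir181a-2, Mir181b-2, Mir181c and Mir181d, were examined in small RNA from the embryonic face. They were identified by their GENCODE symbols, with earlier results of these data known, and they are 6 of the 1973 gene identifiers in the count tables and 6 of the 395 genes that had at least 10 counts in both libraries. Here such genes are called detected. The tissue was the facial prominence, the set of buds that form the face and jaws, dissected from healthy B6NCrl embryos at embryonic day 12.5. One library (replicate 1) came from a pool of 120 embryos and the other (replicate 2) from a pool of 88, and each pool held both sexes. The labels name no treatment, mutation or transgene, and the pools are biological replicates of 1 group, so the values describe this tissue and the difference between 2 pools of it. In pooled whole tissue, fewer cells of a type and less RNA per cell cannot be told apart.

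A miRNA gene is transcribed as a longer RNA that folds into a hairpin, from which an RNA strand is cut out of each arm, called 5p and 3p after the end they lie nearest. Loaded into an Argonaute protein, a strand pairs with target mRNAs mainly through its seed (bases 2 to 8) and lowers their translation and stability. miR-181 is best known from the immune system, where it sets the sensitivity of developing T cells to antigen, and it has also been studied in muscle differentiation, in the vessel wall and in neurons. The 5p strand is the usual guide of this family.

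The mature strands are shown first because they decide which genes of the family can be told apart by sequencing. All 12 mature entries of the 6 genes were matched in RefSeq (GRCm38.p6), and they hold 10 distinct sequences. In each sequence, written 5′ to 3′, the seed is in capitals. The 5p strands are as follows.
miR-181a-5p: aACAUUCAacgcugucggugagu
miR-181b-5p: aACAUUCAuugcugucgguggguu
miR-181c-5p: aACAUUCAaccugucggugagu
miR-181d-5p: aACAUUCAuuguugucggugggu
All 4 share 1 seed, and 0 mature miRNAs outside the family carry it among the 1738 mature entries of that table. With positions counted from 1 at the 5′ end, miR-181b-5p differs from miR-181a-5p by A9U, C10U and A21G over 23 bases. miR-181d-5p differs from miR-181b-5p by C12U over 23 bases and lacks its last base. miR-181c-5p matches miR-181a-5p over the first 10 bases and is then 1 base shorter, an edit distance of 1.

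The 3p strands are shown because they set apart the gene copies whose 5p strands are the same.
miR-181a-1-3p: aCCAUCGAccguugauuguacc
miR-181a-2-3p: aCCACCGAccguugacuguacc
miR-181b-1-3p: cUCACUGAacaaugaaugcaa
miR-181b-2-3p: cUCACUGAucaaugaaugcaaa
miR-181c-3p: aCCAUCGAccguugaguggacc
miR-181d-3p: cCCACCGGgggaugaauguca
These fall into 4 seeds. miR-181a-1-3p and miR-181c-3p share 1 seed, both miR-181b 3p strands share another, and miR-181a-2-3p and miR-181d-3p each have a seed of their own. The change U5C, inside the seed, and U16C lead from miR-181a-1-3p to miR-181a-2-3p. The miR-181b strands differ by A9U over 21 bases, just past the seed.

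The genes lie in 3 clusters of 2 on GRCm38, with 1-based positions from GENCODE M21. Mir181a-1 (ENSMUSG00000065565.1) lay on the plus strand at chr1:137966455-137966541, and Mir181b-1 (ENSMUSG00000065458.1) followed 97 bases downstream at chr1:137966639-137966718. Both lay in an intron of the noncoding gene Gm4258. Mir181b-1 also lay in an exon of the lincRNA A430106G13Rik, which overlapped the last 11 bases of Mir181a-1. Mir181a-2 (ENSMUSG00000065423.1) at chr2:38852735-38852810 and Mir181b-2 (ENSMUSG00000065578.1) at chr2:38853830-38853918 were 1019 bases apart on the plus strand. That cluster lay opposite an intron of Nr6a1, which encodes an orphan nuclear receptor, and had no annotated host on its own strand. Mir181d (ENSMUSG00000076338.1) at chr8:84178716-84178787 and Mir181c (ENSMUSG00000065483.1) at chr8:84178873-84178961 were 85 bases apart on the minus strand, in an intron of Nanos3, a gene of germ cell development. The identifier of Mir181c has a later version in M21 than in the tables, so its place there may differ from the one used for counting.

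The stretch that the copies of Mir181a and of Mir181b have in common is printed below in lower case, with the 5 bases on either side, where they part, in capitals.
Mir181a-1: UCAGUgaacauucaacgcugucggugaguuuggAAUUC
Mir181a-2: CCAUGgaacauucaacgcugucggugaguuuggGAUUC
Mir181b-1: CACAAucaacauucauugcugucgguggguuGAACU
Mir181b-2: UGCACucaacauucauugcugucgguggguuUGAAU
The copies of Mir181a share 28 bases, which run from 1 base before miR-181a-5p to 4 bases after it. The copies of Mir181b share 26 bases, which start 2 bases before miR-181b-5p and end at its last base. In both pairs the copies differ at the base on either side of the stretch. A read that lies wholly inside such a stretch matches both copies equally well. Reads that mapped to several places stood in an entry of their own, with 2970119 reads in replicate 1 and 3575159 in replicate 2, and were in no gene's count. How many of them were miR-181 was not tested.

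**Figure D1:**
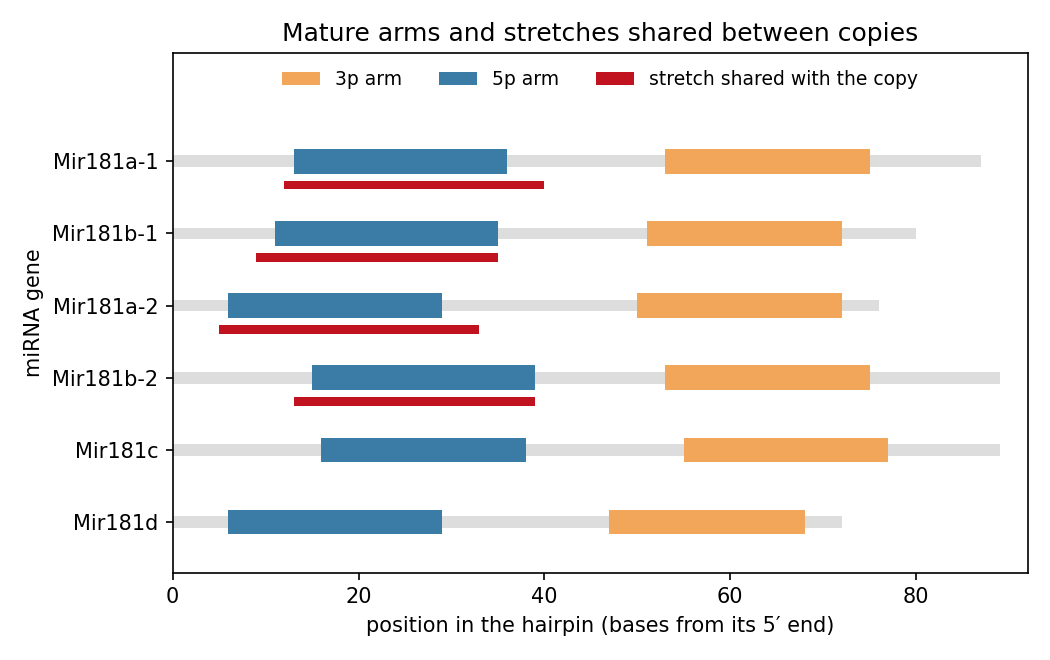
Hairpins of the 6 genes drawn by position in bases from the 5′ end (grey), with the 5p arm in blue, the 3p arm in orange and, in red below, the stretch covered by windows of 22 bases that also occur in another miRNA gene. The red stretch covers the whole 5p arm in the 4 genes of Mir181a and Mir181b and none of Mir181c and Mir181d.

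Across the 2202 miRNA genes of GENCODE M21, on both strands, 7 of the 66 windows of 22 bases in Mir181a-1 were also in Mir181a-2, and 5 of the 59 in Mir181b-1 were also in Mir181b-2. For Mir181c and Mir181d the number was 0 of 68 and 0 of 51, and it was also 0 with windows of 18 bases. Every 3p strand was found in 1 gene only, although miR-181b-1-3p came within 1 mismatch of Mir181b-2, and miR-181a-1-3p within 2 of Mir181a-2 and Mir181c. The strand miR-181d-5p was 1 mismatch from both Mir181b copies. Of the detected genes, 89 (22.5%) shared a stretch of 20 bases with a miRNA gene at another place, and 4 of the 6 Mir181 genes did.

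The family as a whole was well represented in the face. It held 85555 of 4719337 own-strand gene counts in replicate 1, or 1.81% (exact Clopper-Pearson 95% interval 1.80 to 1.82), and 116864 of 5929220 in replicate 2, or 1.97% (1.96 to 1.98). The mean was 1.89% ± 0.112 (SD, n = 2). Levels are given in CPM, the own-strand counts of a gene per 1000000 own-strand counts on all genes. Intervals cover the counting error of reads only, and not the spread between pools. The reads were not counted by molecule, so the intervals do not cover the sampling of RNA molecules either. All 6 genes had 0 reads on the opposite strand in both libraries. The median level of the 6 genes was 2655 CPM, beside 122 CPM over the 395 detected genes.

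Mir181d had a level of 6311 CPM in the pool of 120 embryos and 6958 CPM in the pool of 88, a mean of 6634 ± 457 CPM (SD, n = 2). Its cluster partner Mir181c had 5987 and 6997 CPM, a mean of 6492 ± 714 CPM. These were the highest of the family in both libraries, and they changed places between them: Mir181d led in replicate 1 and Mir181c in replicate 2, so the order of the pair was not resolved. Among the detected genes Mir181d ranked 43rd and 36th, and Mir181c 45th and 35th.

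Mir181b-2 had 2893 CPM in the first pool and 3414 CPM in the second (mean 3154 ± 369 CPM). Mir181a-1 came next with 2166 and 2148 CPM (mean 2157 ± 12.6 CPM) and held rank 73 in both libraries. The ranges of these genes did not overlap each other or those of the chromosome 8 genes. Mir181a-2 had 737 CPM in replicate 1 but 157 CPM in replicate 2 (mean 447 ± 410 CPM), so that the pools stood far apart and the mean describes neither. Mir181b-1 was lowest with 34.3 and 35.2 CPM (mean 34.8 ± 0.652 CPM), from 162 and 209 counts, and its range lay below that of Mir181a-2. Apart from Mir181c and Mir181d, the order of the genes was the same in both pools. This order is one of counted reads and does not compare all reads of the hairpins.

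**Figure D2:**
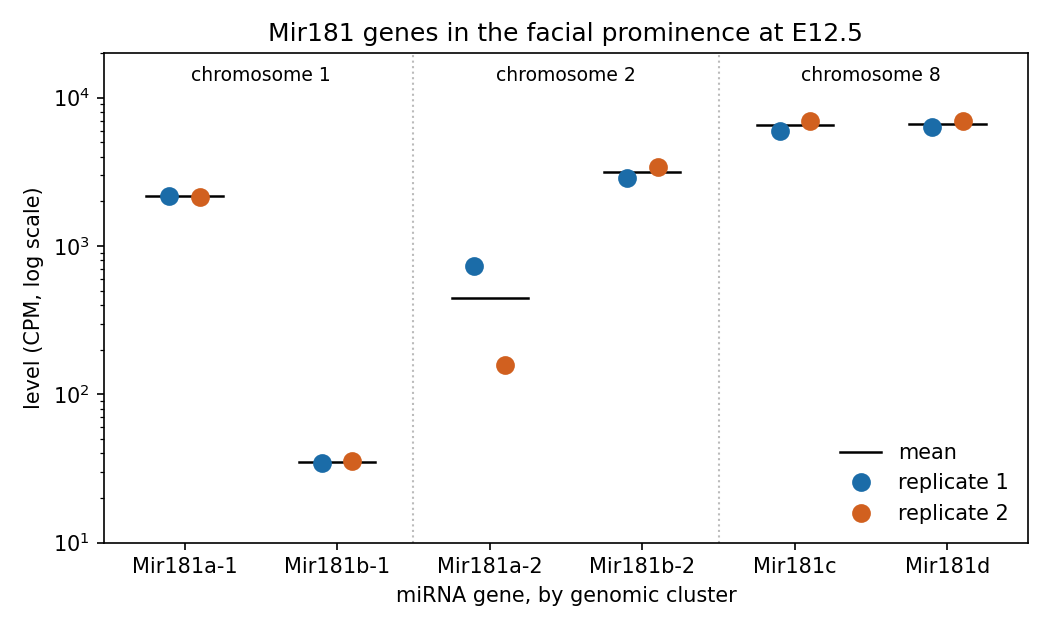
Level of each Mir181 gene in CPM (log axis) in replicate 1 (blue) and replicate 2 (orange), with the mean of both as a black line, in the order of the 3 genomic clusters. The points of a gene nearly coincide except for Mir181a-2, at 737 and 157 CPM. Reads wholly inside the stretches shared by the copies of Mir181a and of Mir181b are left out.

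Divided by hairpin length, the levels ranked the genes alike in both pools. These levels too leave out reads wholly inside the shared stretches. The hairpins span 72 bases (Mir181d) to 89 bases (Mir181b-2 and Mir181c), and per base of hairpin the levels in replicate 1 were 87.7 CPM for Mir181d, 67.3 CPM for Mir181c, 32.5 CPM for Mir181b-2, 24.9 CPM for Mir181a-1, 9.70 CPM for Mir181a-2 and 0.429 CPM for Mir181b-1. In replicate 2 they were 96.6, 78.6, 38.4, 24.7, 2.07 and 0.441 CPM in the same order. On this scale Mir181d stood above Mir181c in both pools, but in replicate 2 only because its hairpin is shorter. A strand is cut from each arm whatever the length of the hairpin, so this scale does not resolve the order of the pair.

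Most of the family's counts, which leave out reads wholly inside the shared stretches, came from chromosome 8. Mir181c and Mir181d together held 67.8% of the family's counts in replicate 1 (exact 95% interval 67.5 to 68.2) and 70.8% in replicate 2 (70.5 to 71.1). The cluster of Mir181a-2 and Mir181b-2 held 20.02% and 18.1%, and that of Mir181a-1 and Mir181b-1 held 12.1% and 11.1%. The 2 genes that share no stretch with a copy are thus also the 2 with the most counts. Counting reads wholly inside the shared stretches could only raise the share of the other clusters, by an amount that was not tested.

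Within a cluster the genes could stand far apart or close together. On chromosome 1, Mir181a-1 held 98.4% of its cluster's counts in replicate 1 (98.2 to 98.7) and 98.4% in replicate 2 (98.2 to 98.6). It thus exceeded Mir181b-1, 97 bases away, by 63.1 and 60.9 times in counts. There and on chromosome 2, the counts leave out reads wholly inside the stretches shared between copies. The ratios therefore do not compare all reads of the hairpins. On chromosome 2 the order was the opposite, with Mir181b-2 above Mir181a-2 by 3.92 times in replicate 1 and 21.7 times in replicate 2. On chromosome 8 the genes were nearly even: Mir181c held 48.7% of the pair (48.3 to 49.1) in replicate 1 and 50.1% (49.8 to 50.5) in replicate 2.

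**Figure D3:**
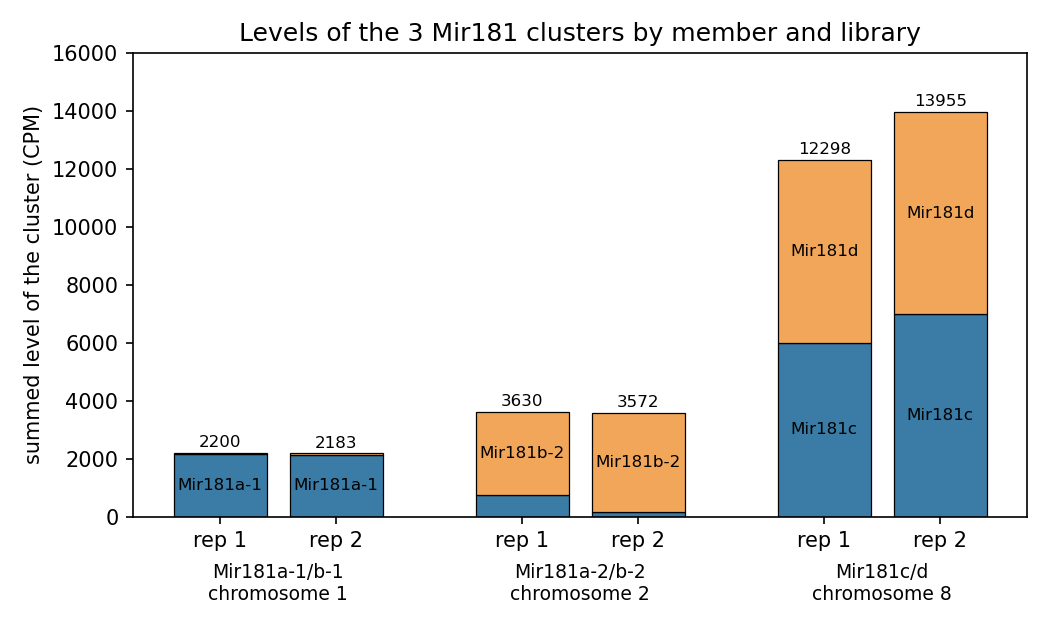
Summed level of each cluster in CPM, stacked by gene, for replicates 1 and 2, with the sum above each bar. Blue is Mir181a-1, Mir181a-2 or Mir181c and orange is Mir181b-1, Mir181b-2 or Mir181d, and the sums on chromosome 2, 3630 and 3572 CPM, are close while the blue part shrinks.

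Between the libraries, Mir181a-2 was the member that stood out. It had 3479 counts in replicate 1 and 933 in replicate 2, a level 4.68 times higher in replicate 1, and its log2 ratio (replicate 2 over 1, as for all ratios here) was -2.23, with an exact 95% interval from -2.34 to -2.13. By a two-sided exact binomial test on the reads, adjusted over all 395 detected genes and with a difference of at least 2-fold required, it was the 1 member of 6 that was called. Over all detected genes 16 were called, or 4.05%, and 12 of these were higher in replicate 1, or 3.04%. Only 1 other detected gene, Mir1247, named after its values were seen, had a larger absolute log2 ratio. That test compares these libraries and covers counting error alone. With a coefficient of variation of 0.2 between pools assumed, edgeR's exact test called 2 genes, or 0.506%, which were Mir181a-2 (edgeR adjusted p = 4.61e-05) and Mir1247. The family was selected with this difference already known, so the call describes the pools and is no independent evidence.

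The other 5 genes differed little. The log2 ratio was 0.23 for Mir181b-2 (exact interval 0.20 to 0.27), 0.22 for Mir181c (0.20 to 0.24) and 0.14 for Mir181d (0.11 to 0.16), beside a median absolute log2 ratio of 0.23 over all detected genes. With no limit on size these 3 were past the threshold of the exact binomial test as higher in replicate 2, a direction in which 27.1% of detected genes were. In either direction 4 of the 6 members were, against 51.9% of detected genes. Mir181a-1, at -0.02 (-0.05 to 0.02), and Mir181b-1, at 0.03 (-0.27 to 0.34), were not past it (exact binomial adjusted p = 0.498 and 0.917). None of these 5 genes passed edgeR's exact test at the assumed coefficient of variation (edgeR adjusted p = 1 for each).

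**Figure D4:**
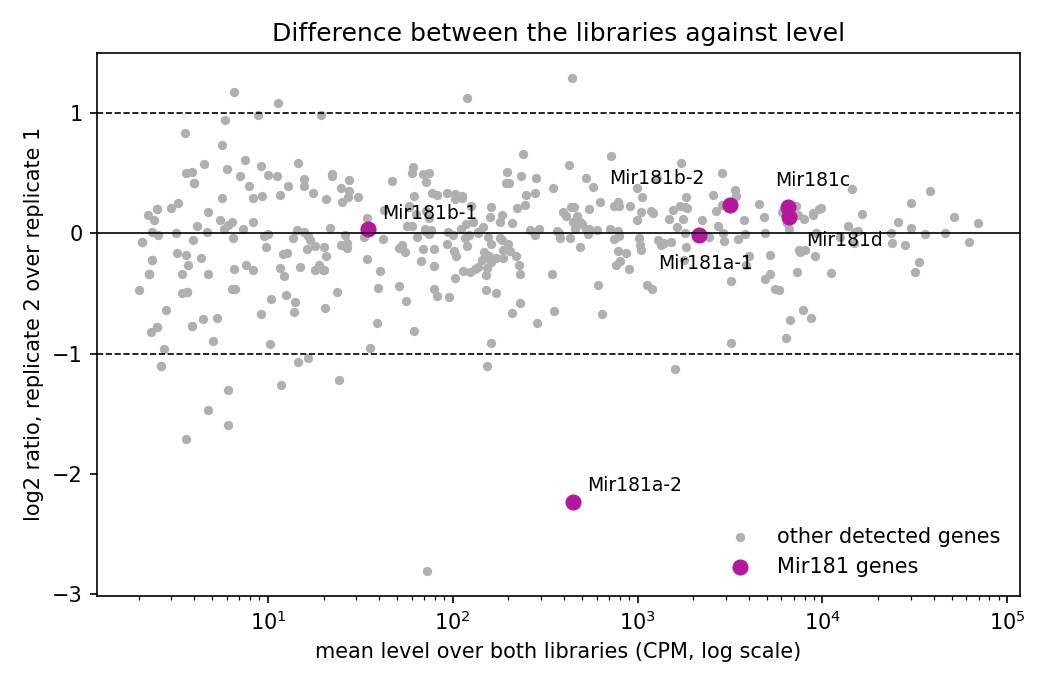
Log2 ratio of replicate 2 over replicate 1 (y axis) against mean level in CPM (log x axis) for the 395 detected genes, with the Mir181 genes in purple and dashed lines at a 2-fold difference. Mir181a-2 lies at -2.23 and the other Mir181 genes between -0.02 and 0.23.

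The summed level of the chromosome 2 cluster was nearly the same in both pools, although Mir181a-2 was not. Mir181a-2 and Mir181b-2 summed to 3630 CPM in the first pool and 3572 CPM in the second (log2 ratio -0.03, exact interval -0.06 to 0.00049). The share of Mir181a-2 in that sum was 20.3% in replicate 1 (19.7 to 20.9) and 4.41% in replicate 2 (4.13 to 4.69). The chromosome 1 cluster had 2200 and 2183 CPM (log2 ratio -0.02, interval -0.05 to 0.02), and the chromosome 8 cluster 12298 and 13955 CPM (log2 ratio 0.18, interval 0.16 to 0.19). Summed over copies, Mir181a had 2903 and 2305 CPM and Mir181b 2927 and 3450 CPM. These sums leave out reads that match both copies.

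The balance between copies was then set beside that of other miRNA genes with copies numbered 1 and 2. Reads that match both copies are left out of these shares. Mir181a-1 held 74.6% of the Mir181a counts in replicate 1 (exact interval 73.9 to 75.3) and 93.2% in replicate 2 (92.7 to 93.6), a change of 18.6 percentage points. For the 17 other pairs with both copies detected, the absolute change ran from 0.204 to 11.0 points with a median of 2.18 points, and all 17 were below that of Mir181a. Those with the widest change were Mir7, of neuroendocrine cells and neurons, where copy 1 went from 72.4% to 83.4%, Mir135a, from 74.0% to 63.8%, and Mir30c, from 69.1% to 77.1%. On the log2 scale the ratio of Mir181a-1 over Mir181a-2 moved by 2.22, beside a median of 0.28 and a maximum of 0.93 over the 17 pairs.

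In counts without reads wholly inside the shared stretches, the Mir181b copies kept their balance but were the most unequal of the pairs. Mir181b-1 held 1.17% of the pair in replicate 1 (1.00 to 1.37) and 1.02% in replicate 2 (0.889 to 1.17), which put Mir181b-2 above it by 84.3 and 96.9 times. In the 17 other pairs the median ratio of the larger copy over the smaller was 2.84 in replicate 1 and 3.37 in replicate 2, and 0 of them were more unequal than Mir181b in either library. By these counts the larger copy was Mir181a-1 of chromosome 1 for Mir181a, and Mir181b-2 of chromosome 2 for Mir181b. The stretch shared by the Mir181b copies holds all of miR-181b-5p, so the ratios do not compare all reads of the copies.

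**Figure D5:**
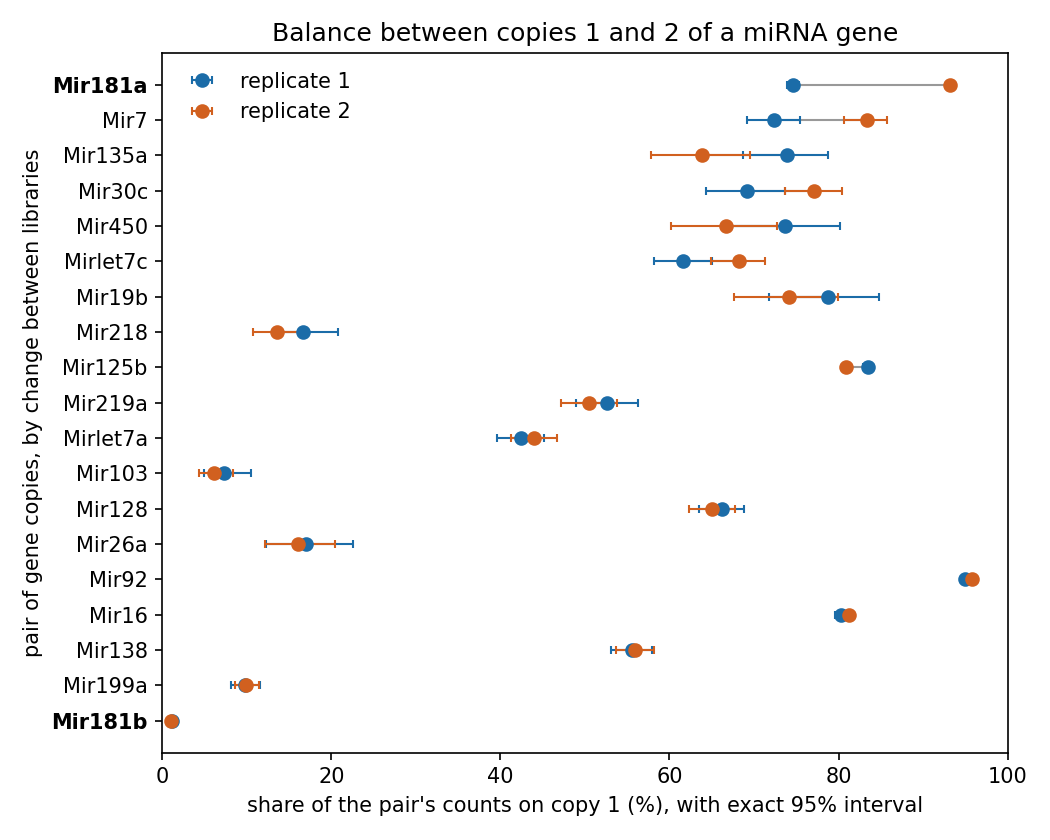
Share of a pair's own-strand counts that lay on copy 1, in percent, for replicate 1 (blue) and replicate 2 (orange), with exact 95% intervals, for both Mir181 pairs (bold) and 17 other pairs, ordered by the change between libraries. Mir181a moved by 18.6 points and is at the top, and Mir181b lies near 1% in both libraries. Reads that match both copies are left out.

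Other detected genes had levels close to those of 5 members, as measured by the distance in log2 CPM over the 2 libraries. The nearest were Mir151 to Mir181d (distance 0.0727), Mir296 to Mir181c (0.0986), Mir708 to Mir181b-2 (0.147), Mir301 to Mir181a-1 (0.0441) and Mir3080 to Mir181b-1 (0.0733). For Mir181a-2 the nearest gene was Mir485 of the imprinted Dlk1-Dio3 region, at 432 and 277 CPM in replicates 1 and 2, at a distance of 1.12. No gene outside the family thus had both values of Mir181a-2.

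GENCODE M21 has 6 further miRNA genes within 100 kb of a Mir181 gene, and all 6 lie near the chromosome 8 cluster. Mir23a, Mir27a and Mir24-2 form a cluster of their own on the opposite strand, starting 29557 bases from Mir181c. Mir23a stood at 12521 and 12297 CPM in replicates 1 and 2, above either Mir181 gene of the chromosome, whereas Mir27a (174 and 194 CPM) and Mir24-2 (115 and 136 CPM) were far lower. Of these 3 genes 0 were called between the libraries. Mir24-2 is by its symbol a numbered copy, and reads that mapped to several places are in no gene's count. Its level is thus not directly comparable with that of Mir23a, and how far it was lowered was not tested. Mir709 and Gm25110 had 0 counts in both libraries, which allows up to 0.636 CPM in replicate 1 and 0.506 CPM in replicate 2, and Mir3074-2 was not listed in the tables.

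Genes typical of the cell types where miR-181 is best known were detected at varied levels. Leukocyte genes had 4 of 5 measured members detected and held 0.0531% and 0.0512% of counts in replicates 1 and 2, led by Mir223 of myeloid cells (288 and 296 CPM) and Mir155 of activated lymphocytes (137 and 138 CPM), and their median level was 109.7 CPM. Neural genes had 12 of 16 detected, with 0.184% and 0.171% of counts, led by Mir137 (794 and 784 CPM). Striated muscle genes had 5 of 8 detected, with 0.118% and 0.155%, led by Mir206 of skeletal muscle (1068 and 1472 CPM, log2 ratio 0.46). The median log2 ratio of the 5 muscle genes was nevertheless -0.81, with Mir208b, of a myosin gene intron, at 78.8 and 45.03 CPM. Endothelial genes had 3 of 3 detected, with 2.93% and 2.75% of counts and a median level of 160 CPM, and Mir126a alone had 29030 and 27230 CPM. The neural and striated muscle lists, unlike the endothelial list, hold numbered copies of a miRNA gene. Reads that mapped to several places are in no gene's count, so the shares of the lists are not directly comparable. The same holds for the order of genes within a list and for the median levels. How far this lowered a share or a level was not tested. Between the libraries 0 leukocyte, 0 neural and 0 endothelial genes were called, while 2 striated muscle genes, Mir208a and Mir1b (named after their values were seen), were called higher in replicate 1, beside 4.05% of all detected genes in either direction and 3.04% in that one. The muscle list thus lay in the direction of Mir181a-2 by its median and its calls, and against it by its summed share, and its part in that difference was not tested. Which cells the miR-181 reads came from was not tested.

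Markers of the labelled tissue were present. The skeletal mesenchyme genes were all detected (6 of 6, 6.47% and 6.42% of counts), led by Mir214 at 45630 and 45910 CPM, as were the epithelial genes (7 of 7, 3.08% and 3.58%). Liver genes, listed as a set that should be absent, nevertheless had 3 of 4 detected, with a median level of 63.4 CPM. They held 0.0150% and 0.0158% of counts, led by Mir192 at 75.2 and 76.7 CPM. The skeletal mesenchyme and liver lists also hold numbered copies, so their shares too leave out reads that mapped to several places. Erythroid genes held 0.0223% in replicate 1 and 0.0331% in replicate 2, opposite in direction to Mir181a-2, with log2 ratios of 0.66 for Mir451a and -0.31 for Mir486, and their part in the difference of Mir181a-2 was not tested. The libraries held 11414919 and 12792420 reads, of which 41.3% and 46.3% were counted to miRNA genes in sense, 26.0% and 27.9% mapped to several places and 25.7% and 19.4% were unmapped.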

How the data were processed

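RNA of miRNA size was sequenced from 2 pools of facial prominences. The authors deposited raw read counts per miRNA gene for each library, aligned to mm10 with GENCODE M4, per the file descriptions. The aligner, counter and trimming are not given in the sources used here. The tables hold a count for both strands, 1 strand and the other. The column with 96.8% and 96.7% of gene reads was used as the own strand. Entries for reads counted to no gene (unmapped, several places, outside genes) were left out of library sizes and tests. A gene's count joins both arms.

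GENCODE M21 gave symbols to 1894 of 1973 identifiers, matched without version. Hairpins were compared among miRNA genes only, since no genome sequence was used. Levels are mean ± SD of 2 libraries. Differences were tested per gene with a two-sided exact binomial test (scipy 1.17.1) on TMM library sizes (edgeR 4.0.16, factors 0.998 and 1.002), adjusted by Benjamini-Hochberg over 395 genes, and called at 0.05 and at least 2-fold. The test was run on simulated counts that held counting error only, so that run says nothing about the spread between pools. Quasi-likelihood needs residual degrees of freedom, which 1 library against 1 does not leave. Alternatives were strand, library size (DESeq2 1.42.0 factors among them), count minimum, edgeR's exact test and leaving out a library. The named genes were the 6 members, the nearest gene in level to each, miRNA genes within 100 kb, the top genes of fixed lists and the 3 copy pairs with the widest change. Members and lists were chosen with earlier results of these data known.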

Additional observations from a re-analysis of the deposited data

How the results depend on the processing

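With 2 libraries, precision rests on a single difference per gene, and no pool can be singled out as the unusual one. The level of Mir181a-2 was 157 CPM without replicate 1 and 737 CPM without replicate 2, and its share of the chromosome 2 cluster was 4.41% and 20.3%. The call of Mir181a-2 held under all 8 alternatives, with log2 ratios from -2.27 to -2.22. All 8 used the same counts of this gene, 3479 and 933, and dropping the fold limit could not undo a call. The agreement thus says nothing about how further pools would behave. With no limit on the fold, 4 of the 6 Mir181 genes were past the threshold in place of 1, beside 205 of 395 detected genes (51.9%). Over all genes, 24 of 781 were called with no filter on low counts, 6 of 277 with a minimum of 100 counts, and 2 with edgeR's exact test at the assumed or the fitted coefficient of variation (0.190), in place of 16. Mir181b-1, which was not called, turned from a log2 ratio of 0.03 to -0.0038 with the minimum of 100 counts.

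With counts on both strands, Mir181a-1 had 2086 CPM and Mir181b-1 33.7 CPM, further from their reported levels than the SD of the pools. With all reads as the denominator, the family held 0.832% of reads, since unmapped reads, reads mapped to several places and reads outside genes then count too. The levels per 1000000 reads were 945 for Mir181a-1, 15.3 for Mir181b-1, 189 for Mir181a-2, 1389 for Mir181b-2, 2859 for Mir181c and 2917 for Mir181d. The fall of Mir181a-2 from 447 to 189 is within the wide SD of its pools. TMM library sizes moved each of the 6 levels by less than its own SD. Strand could not change the shares within clusters and copy pairs, because the genes had 0 opposite reads. With 2 libraries, leaving out either moves a mean by less than the SD whatever the values, so it says nothing about stability. Leaving out a library could not be done for the difference between libraries. No paired analysis was possible because the libraries form 1 group.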
